A study of Mus musculus with 21 samples.

Results

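The comparison covers 6 libraries of the ventral pons, taken 14 days after the right facial nerve had been cut: 3 from the lesion (right) side and 3 from the contralateral (left) side. They were taken by their sample labels out of 21 libraries, which form 7 groups of 3: both sides of the pons at days 7, 14 and 30, and unoperated pons at day 0. All mice were CX3CR1GFP/wt on a C57BL/6 background, so every group, unoperated included, had 1 copy of Cx3cr1, a microglial receptor gene, replaced by the sequence of a green fluorescent protein. The nerve was cut at the stylomastoid foramen at 8 weeks of age, and the day 14 animals were 10 weeks old. The block held the facial nucleus together with neighbouring reticular and trigeminal nuclei, so each library mixed RNA of many cell types. The lesion was on the right in every case, and side and lesion cannot be told apart. Of 45664 genes in the count table, the 22294 with a summed count of at least 30 over all libraries were tested.

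The facial nucleus holds the motor neurons that drive the muscles of facial expression, and their axons leave the brainstem in the facial nerve. A cut at the stylomastoid foramen is made away from the cell bodies in the pons, which can switch from a transmitting to a growing state. The sample labels describe the lesion side as ipsilateral neurodegeneration, and loss of motor neurons was not measured here. Microglia gather around the injured cell bodies, astrocytes react beside them, and the nucleus itself is not opened, which makes the model a standard one for the central response to a peripheral nerve injury.

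Summed counts ran from 19614538 to 26540472 in the lesion libraries and from 19221145 to 21782564 in the contralateral ones. Levels are given as CPM, a count scaled to the library total, with library totals scaled by TMM factors. Lesion replicate 2 stood apart: mitochondrial genes took 2.81% of its counts, against 4.48% and 4.4% in the other lesion libraries and 4.48% to 4.76% in the contralateral libraries. The chi-square per degree of freedom between it and the other lesion libraries was 25.1 and 20.1, against 4.24 to 6.67 for every other replicate pair, and no pair matched within sampling noise. Choroid plexus markers summed to 42 to 412 CPM in lesion and 87.2 to 1009 CPM in contralateral libraries, and cerebellar markers to 329 to 571 CPM and 308 to 420 CPM, with no member of either list called. The part of these tissues in the results was not tested. The labels do not say whether the libraries of a group came from separate animals, so p-values measure spread between libraries. That spread was estimated within groups over all 21 libraries, not from the day 14 libraries alone.

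At day 14 the lesion pons differed from the contralateral pons in 866 genes at an adjusted p below 0.05, which is 3.88% of genes tested. Of these, 575 were higher in the lesion pons (2.58% of genes tested) and 291 lower (1.31%). The higher genes had a median log2 difference of 0.67 and 97 of them reached 1.7, a second threshold the study used. The lower genes had a median of -0.34 and 5 reached -1.7. At that threshold 0.458% of genes were called, 0.435% higher and 0.0224% lower. The count depended on single libraries: it was 1983 without lesion replicate 1, 439 without lesion replicate 2, 641 without lesion replicate 3, and 521, 432 and 492 without contralateral replicates 1, 2 and 3. The lower genes moved most, with 962 called without lesion replicate 1 and 51 without lesion replicate 2. With only the groups compared in the fit, 435 genes were called, 348 higher and 87 lower. Across every alternative fit that gave the gene a value, 275 higher genes (47.8%) and 34 lower genes (11.7%) stayed called. A fit without a value for a gene was passed over, here and wherever a call is said to hold in every alternative fit.

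**Figure D1:**
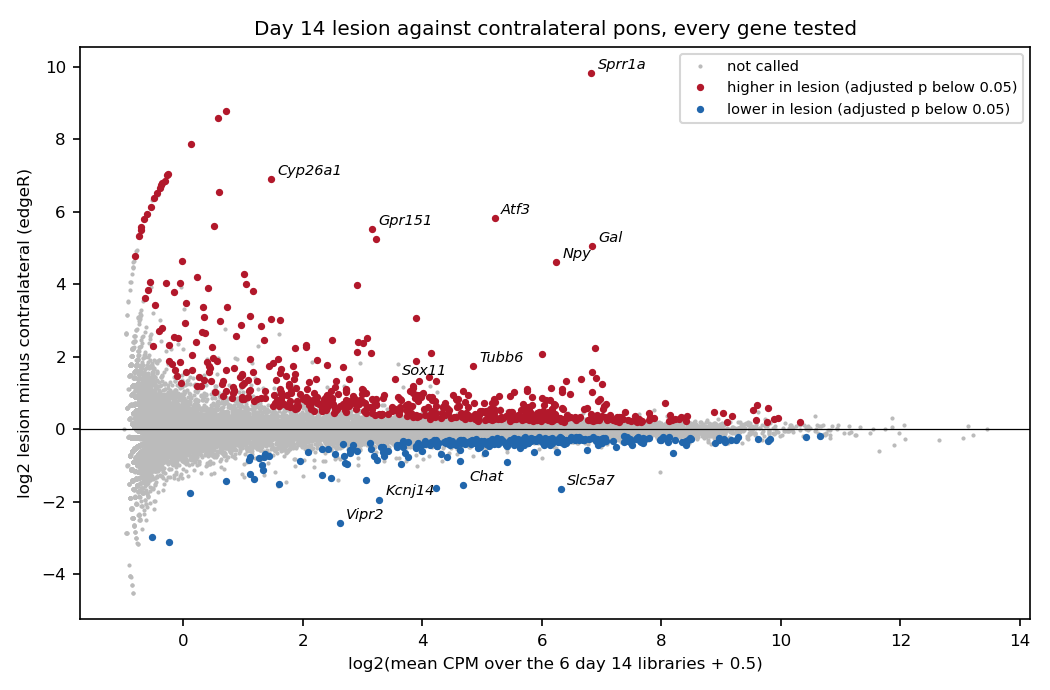
Each point is 1 of the 22294 genes tested, with its mean level over the 6 day 14 libraries on the x axis (log2 of CPM plus 0.5) and the fitted log2 difference, lesion minus contralateral, on the y axis. The 575 higher genes reach 9.83, whereas most of the 291 lower genes lie close to 0.

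The largest changes were a small set of genes that were nearly silent in the contralateral pons. Sprr1a encodes a small proline-rich protein of cornified epithelia that injured neurons make during axon growth. It was read at 202, 223 and 254 CPM in the 3 lesion libraries, against 0.245, 0.208 and 0.274 CPM in the contralateral ones. No other gene tested had a larger fitted difference (log2 9.83 ± 0.52, SE, adjusted p = 1.8e-08). The gene lies at chr3:92483952-92485895 on the minus strand of GRCm38. Its neighbour Sprr2j-ps, named as a pseudogene of the same family, had 165 counts summed over lesion libraries and none in contralateral libraries. With 3 counts per group as the limit of detection it was at least 46.3-fold higher. Copies within this family are alike, so reads may be split among them. In all, 18 of the higher genes had no count in any contralateral library.

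Several other genes of this set act in signalling. Atf3, a stress-induced transcription factor of the basic leucine zipper class, stood at 62.4, 71 and 81.9 CPM in lesion libraries, against 1.27, 1.3 and 1.19 CPM in contralateral libraries (log2 5.84 ± 0.32, adjusted p = 1.8e-08). Gpr151, an orphan receptor of the G protein-coupled class, had 15.2, 15.4 and 19 CPM in lesion libraries and 0.489, 0.311 and 0.274 CPM in contralateral libraries (log2 5.51 ± 0.35, adjusted p = 3.2e-09). Both genes kept the 2 groups of libraries far apart, with the contralateral values inside or near the day 0 ranges of 0.994 to 1.52 CPM for Atf3 and 0.0937 to 0.442 CPM for Gpr151. The day 0 libraries came from mice of 8 weeks, held 35874913 to 41448945 counts and carry another lane label than the day 14 ones. Day 0 ranges, here and below, are therefore not a matched control, and no difference from them was tested. Cyp26a1, which degrades retinoic acid, had 2.48, 5.32 and 5.64 CPM in lesion libraries. It had 342 counts summed over lesion libraries and 2 over contralateral libraries, a ratio of 144 with an exact 95% interval of 39.5 to 1193 that covers counting error only. Lesion replicate 1 was the lowest of the lesion libraries for Cyp26a1. Serpinb2, an inhibitor of plasminogen activators that shares exon bases with Serpinb10, had 144 counts in lesion libraries and 1 in contralateral libraries, a ratio of 121 with an interval of 21.4 to 4819.

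Anxa10, a calcium-binding annexin, was the seventh of the named genes (those with at least 1 CPM, sides apart and no clone-based symbol) by size of difference, at 14.7, 18.4 and 18.8 CPM in lesion libraries and 0.392, 0.208 and 0.731 CPM in contralateral libraries (log2 5.24 ± 0.25, adjusted p = 1.1e-13). The remaining genes of the 15 largest under that rule ran in log2 difference from 5.06 for Gal down to 3.12 for Il1f9. Among them were Ankrd1, a muscle ankyrin repeat protein, at 1.72, 3.39 and 3.54 CPM in lesion libraries, against 0.147, 0.156 and 0.137 CPM in contralateral ones. Uox, the urate-degrading oxidase, had 2.33, 2.94 and 3.58 CPM in lesion libraries and 0.245, 0.156 and 0.137 CPM in contralateral libraries. Ppef1, a calcium-binding protein phosphatase, had 13.6, 12.5 and 13.6 CPM in lesion libraries and 0.832, 1.09 and 0.594 CPM in contralateral libraries. All 15 held their call in every alternative fit, and that their sides did not overlap was required by the naming rule. Over all genes tested, 10.7% had the 3 lesion libraries above the 3 contralateral ones.

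**Figure D2:**
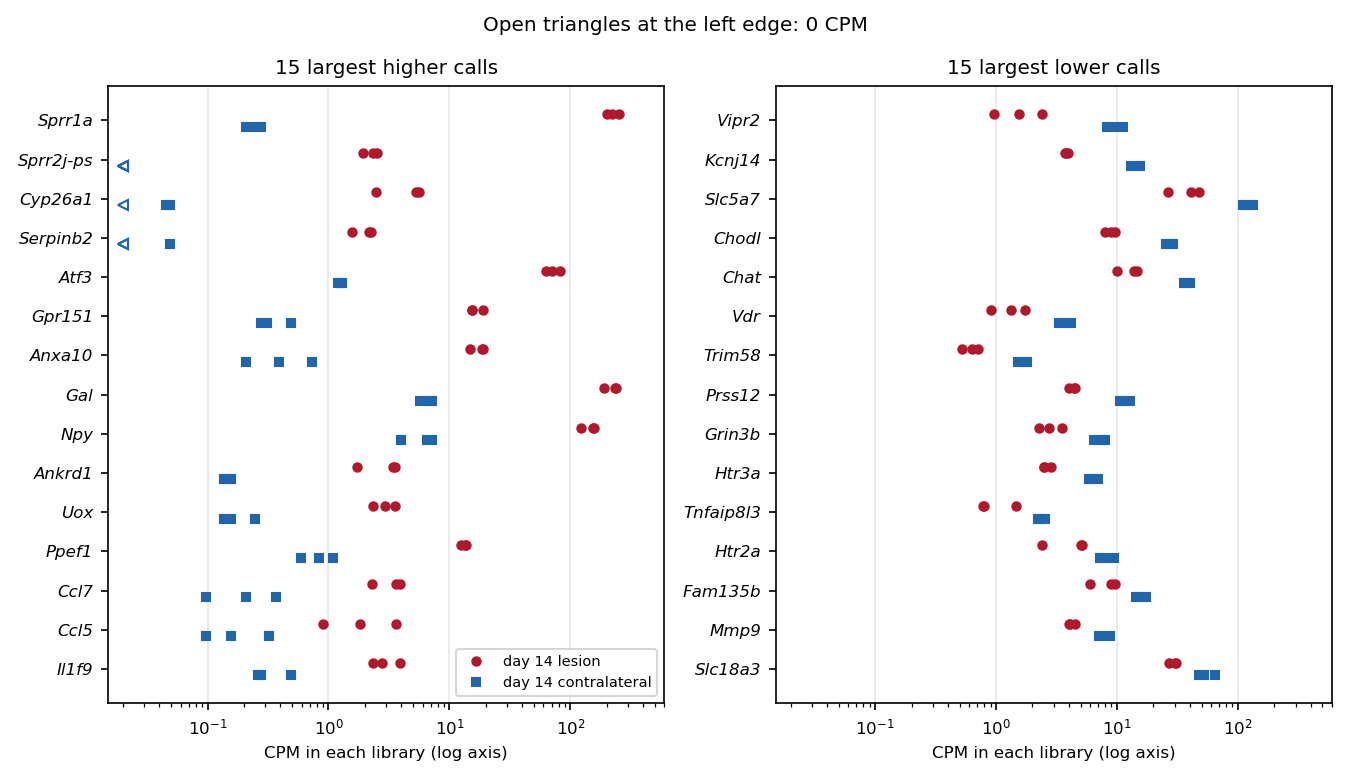
CPM in each library on a log axis for the 15 higher (left) and the 15 lower (right) named genes with the largest fitted differences, with lesion libraries as circles above contralateral libraries as squares. Open triangles mark 0 CPM; no gene has overlapping groups, and Sprr1a, at 202 to 254 CPM, holds the highest lesion value on the left.

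Promoters of these genes were read because Atf3 and Jun, both higher in the lesion pons, encode proteins that pair in the AP-1 family. The binding motif of this family was searched as TGANTCA, a loose form that takes any base (N) in the middle. The RefSeq table of promoters (build GRCm38.p6, 250 bases before to 50 after each start) held 11 of the 15 largest higher genes, with 12 promoters among them. The motif, searched on both strands and with overlaps allowed, was in 4 of these 12, belonging to Sprr1a, Serpinb2 (with 2 overlapping windows) and Anxa10. It was in 10.5% of 486 promoters of genes called higher, 3.94% of 279 promoters of genes called lower and 5.7% of 17059 promoters of genes tested. Over all 32851 promoters held, it was in 7.81%. For comparison, the cyclic AMP response element TGACGTCA was in 1.44%, 1.43% and 2.66% of the sets of genes called higher, called lower and tested. TTCNNNGAA, the motif of STAT proteins, was in 10.1%, 5.38% and 7.12% of them. Among the 12 promoters of the largest higher genes, TTCNNNGAA was in 3 and TGACGTCA in 0. Over all promoters these 2 motifs were in 8.3% and 1.79%. These are counts of letters, without a test, and a match is not a measured binding site. The promoters with 2 matches are those of Sprr1a (chr3:92485832-92486131, minus strand, first bases of the matches at -146 and -116 from the start) and Anxa10 (chr8:62123144-62123443, minus strand, at -180 and -16). They are shown 5′ to 3′ on the gene's strand with the matches in capitals, beside 1 window of Serpinb2 (chr1:107511173-107511472, plus strand, at -94). All were picked because they hold the motif. The promoters of Cyp26a1, Atf3, Gal, Npy, Ankrd1, Uox, Ppef1 and Il1f9 held no match. The matches read TGAGTCA in Sprr1a and Anxa10. The overlapping windows of Serpinb2 share the same match, TGAATCA.
Sprr1a: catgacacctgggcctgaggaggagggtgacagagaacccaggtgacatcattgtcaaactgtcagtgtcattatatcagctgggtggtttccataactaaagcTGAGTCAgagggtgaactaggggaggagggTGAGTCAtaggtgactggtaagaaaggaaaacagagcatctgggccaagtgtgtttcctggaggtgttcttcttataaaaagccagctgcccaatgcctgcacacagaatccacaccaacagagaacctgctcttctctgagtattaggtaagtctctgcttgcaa
Anxa10: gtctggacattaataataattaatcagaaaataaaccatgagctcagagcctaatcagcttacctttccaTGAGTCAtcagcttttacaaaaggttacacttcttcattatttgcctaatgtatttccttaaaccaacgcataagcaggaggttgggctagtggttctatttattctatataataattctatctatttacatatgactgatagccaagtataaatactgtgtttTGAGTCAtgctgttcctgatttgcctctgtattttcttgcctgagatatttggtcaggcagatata
Serpinb2: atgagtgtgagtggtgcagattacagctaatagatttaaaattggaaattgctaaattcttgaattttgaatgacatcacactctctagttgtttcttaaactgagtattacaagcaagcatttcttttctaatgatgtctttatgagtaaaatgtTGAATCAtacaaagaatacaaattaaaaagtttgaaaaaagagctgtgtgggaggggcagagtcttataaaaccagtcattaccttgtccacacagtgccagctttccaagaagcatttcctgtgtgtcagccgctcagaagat

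Of 20 transcription factors linked to axon regeneration, Atf3 included, 6 were higher and 0 lower, and the list's median log2 difference was 0.18, against 0.00 over all genes tested. For reference, 2.58% of all genes tested were called higher and 1.31% lower. Members of this and the later lists were chosen with earlier results of these data known, so the shares called may reflect that choice. Sox11, a factor of neuronal growth programmes, had 15.4, 17.3 and 15.9 CPM in lesion libraries, against 7.29, 6.02 and 5.21 CPM in contralateral libraries (log2 1.39 ± 0.13, adjusted p = 5e-08). Jun, a subunit of AP-1, had 77.7, 81 and 79.5 CPM in lesion libraries, against 53.4, 51 and 45.9 CPM in contralateral libraries (log2 0.66 ± 0.09, adjusted p = 4.4e-05). In both genes the lesion libraries lay close together and above every contralateral library. Stat3, which carries cytokine signals to the nucleus, differed less, at 105, 96.5 and 106 CPM in lesion libraries and 83.5, 83.1 and 81.7 CPM in contralateral libraries (log2 0.31 ± 0.06, adjusted p = 0.0015). Nfil3 rose too (log2 0.67 ± 0.13, adjusted p = 0.0016). Klf6 and Smad1, other genes of the list, had log2 differences of 0.25 ± 0.11 and 0.15 ± 0.08, neither past the threshold (adjusted p = 0.22 and 0.34).

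Genes of the growing axon and its cytoskeleton formed one of the broadest groups, with 15 higher and 1 lower of 32 tested and a median log2 difference of 0.29. Tubb6, a beta-tubulin, had 36.7, 45.9 and 48.1 CPM in lesion libraries, against 12.1, 12.8 and 13.9 CPM in contralateral libraries (log2 1.75 ± 0.10, adjusted p = 2.8e-12). Gap43, the growth-associated protein of the growth cone, had 291, 342 and 359 CPM in lesion libraries, against 220, 184 and 195 CPM in contralateral libraries (log2 0.73 ± 0.09, adjusted p = 1.5e-05). Stmn2, which regulates microtubules in growing axons, averaged 957 ± 65.6 CPM in lesion libraries and 604 ± 25.3 CPM in contralateral libraries (SD, n = 3 each), and none of these libraries overlapped. Tubb3, the neuronal beta-tubulin, averaged 1057 ± 134 CPM in lesion and 700.4 ± 40.7 CPM in contralateral libraries (log2 0.59 ± 0.07). Tubb2b, Tuba1a, Tubb2a and Crmp1 rose by log2 0.97, 0.47, 0.40 and 0.31, although tubulin genes are alike in sequence and reads may be split among them. Gadd45a, a stress-inducible gene, had a log2 difference of 1.32 ± 0.12 (adjusted p = 4.2e-08). The neurofilaments did not follow this group. Nefl, the light chain, was lower at 1239, 1264 and 1300 CPM in lesion libraries, against 1471, 1415 and 1489 CPM in contralateral libraries (log2 -0.20 ± 0.06, adjusted p = 0.039). That call was lost whichever library was left out: its adjusted p was 0.055, 0.1 and 0.06 without lesion replicates 1, 2 and 3, and 0.11, 0.067 and 0.13 without contralateral replicates 1, 2 and 3. Nefm and Nefh, the medium and heavy chains, had log2 differences of -0.11 ± 0.10 and 0.01 ± 0.09 (adjusted p = 0.62 and 0.98).

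Among 26 neuropeptides and granins, 4 were higher and 0 lower, and their median log2 difference was 0.12. Gal, the precursor of galanin, had 190, 238 and 236 CPM in lesion libraries, against 7.24, 5.71 and 6.94 CPM in contralateral libraries (log2 5.06 ± 0.36, adjusted p = 5.2e-07). Npy, the precursor of neuropeptide Y, had 123, 155 and 156 CPM in lesion libraries, against 7.14, 3.95 and 6.53 CPM in contralateral libraries (log2 4.62 ± 0.45, adjusted p = 1.5e-05). For both, lesion replicate 1 was the lowest of the lesion libraries and still far above every contralateral one. Vip, the vasoactive intestinal peptide gene, had 21.2, 23.5 and 18.1 CPM in lesion libraries, against 11.8, 10.6 and 8.91 CPM in contralateral libraries (log2 1.00 ± 0.19, adjusted p = 0.0027). Its receptor gene Vipr2 went the other way, as described below for the genes that fell. Grp, gastrin-releasing peptide, had 2.89, 3.39 and 4.25 CPM in lesion libraries, against 1.32, 1.19 and 1.55 CPM in contralateral libraries (log2 1.37 ± 0.24, adjusted p = 0.00052). The 2 genes of calcitonin gene-related peptide had differences of opposite sign, neither called: log2 0.42 ± 0.24 for Calca (adjusted p = 0.37) and -1.39 ± 0.38 for Calcb (adjusted p = 0.057), although neither overlapped between sides. Calca had 52.4, 46.9 and 51.4 CPM in lesion libraries, against 39.2, 34 and 38.9 CPM in contralateral libraries. Calcb had 4.15, 2.35 and 2.82 CPM in lesion libraries, against 8.42, 7.27 and 8.27 CPM in contralateral libraries.

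Receptors for trophic factors were called in part. Of 33 such receptors and ligands, 4 were higher and 1 lower. Gfra1, the co-receptor for the trophic factor GDNF, had 172, 159 and 193 CPM in lesion libraries, against 70.4, 64.5 and 61 CPM in contralateral libraries (log2 1.42 ± 0.11, adjusted p = 8.5e-08). Ret, the signalling receptor it works with, had 194, 186 and 204 CPM in lesion libraries, against 152, 132 and 134 CPM in contralateral libraries (log2 0.48 ± 0.08, adjusted p = 0.00038). In both, all lesion libraries lay above all contralateral ones. Socs3, which damps cytokine signals, had 4.51, 4.73 and 4.93 CPM in lesion libraries, against 1.91, 0.987 and 1.28 CPM in contralateral libraries (log2 1.76 ± 0.23, adjusted p = 9.7e-06). Ntrk3, the receptor of neurotrophin 3, was lower by log2 -0.42 ± 0.11 (adjusted p = 0.031). That call was lost without lesion replicate 2 (0.21) and without contralateral replicate 1 (0.095), 2 (0.088) or 3 (0.085). Ntrk2, Lifr and Il6st, receptors for BDNF and for cytokines of the interleukin 6 family, had log2 differences of -0.11 ± 0.07, 0.13 ± 0.10 and -0.10 ± 0.07, none past the threshold (adjusted p = 0.46, 0.5 and 0.48).

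Among 26 integrins and adhesion receptors, 6 were higher and 0 lower, while the list's median log2 difference was 0.01. Itga7, a laminin-binding integrin chain, had 94.4, 102 and 111 CPM in lesion libraries, against 27, 21.9 and 24.6 CPM in contralateral libraries (log2 2.06 ± 0.11, adjusted p = 1.6e-10). Its partner chain Itgb1 had 151, 155 and 170 CPM in lesion libraries, against 120, 121 and 122 CPM in contralateral libraries (log2 0.39 ± 0.06, adjusted p = 0.00015). Neither gene overlapped between sides. Cd44, a hyaluronan receptor, had 32.6, 23.3 and 28.2 CPM in lesion libraries, against 6.7, 6.59 and 6.08 CPM in contralateral libraries (log2 2.12 ± 0.16, adjusted p = 7.4e-09). Chl1, a neuronal adhesion molecule, rose by log2 0.63 ± 0.10. Among annexins and S100 proteins, which bind calcium and membranes, 6 of 19 were higher and 0 lower; 3 of the 19 were called without lesion replicate 2 and without contralateral replicate 3. Anxa2 had 128, 153 and 154 CPM in lesion libraries, against 54.9, 56.4 and 56.3 CPM in contralateral libraries (log2 1.38 ± 0.11, adjusted p = 1.2e-07). Its binding partner S100a10 had 91.6, 118 and 122 CPM in lesion libraries, against 51.4, 48.8 and 52.7 CPM in contralateral libraries (log2 1.12 ± 0.16, adjusted p = 0.00037). Both kept their calls in every alternative fit.

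Of 30 genes of apoptosis and the p53 response, 6 were higher and 0 lower. Pmaip1, which encodes the pro-apoptotic protein NOXA, had 11.2, 10.1 and 12.9 CPM in lesion libraries, against 2.4, 2.13 and 3.2 CPM in contralateral libraries (log2 2.14 ± 0.19, adjusted p = 1.8e-08). Its lesion libraries all lay above its contralateral ones. Among 23 genes of cholesterol synthesis and uptake, 5 were higher and 0 lower, among them Mvd, Mvk, Fdps and Pmvk. Mvk, the mevalonate kinase, had 44.5, 57.2 and 51.9 CPM in lesion libraries, against 36.5, 36.8 and 37.8 CPM in contralateral libraries (log2 0.47 ± 0.08, adjusted p = 0.00057). The 5 calls became 2 without lesion replicate 3 or contralateral replicate 3, and 3 without contralateral replicate 1 or 2. Heat shock and chaperone genes and genes of the amino acid stress response were called in 1 of 26 and 1 of 30, shares near the 2.58% of all genes.

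Genes of the cholinergic motor neuron were among those that fell by the most. In RNA from a block of tissue, fewer cells of a type and less RNA per cell cannot be told apart. Chat, the enzyme that makes acetylcholine, had 13.8, 9.94 and 14.7 CPM in lesion libraries, against 39.8, 35.5 and 36.5 CPM in contralateral libraries (log2 -1.54 ± 0.22, adjusted p = 0.00062). Slc5a7, the choline transporter, had 47.4, 26.6 and 40.8 CPM in lesion libraries, against 133, 118 and 111 CPM in contralateral libraries (log2 -1.66 ± 0.30, adjusted p = 0.0048). Its contralateral level was itself above the day 0 range of 59.2 to 88.5 CPM, a difference not tested here. Slc18a3, the vesicular transporter of acetylcholine, lies inside Chat on the same strand, at chr14:32462438-32464850 within chr14:32408203-32465989. It had 30, 27.1 and 30.5 CPM in lesion libraries, against 64.8, 47.3 and 52.2 CPM in contralateral libraries (log2 -0.91 ± 0.19, adjusted p = 0.016). Without lesion replicate 2 its adjusted p was 0.1, and without contralateral replicate 1 it was 0.069. Ache, which breaks acetylcholine down, fell less, at log2 -0.22 ± 0.05 (adjusted p = 0.017, and 0.12 without contralateral replicate 1).

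In the list of motor neuron markers, which includes these 4 cholinergic genes, 8 of 21 were lower and 1 higher, with a median log2 difference of -0.27. Of all genes tested 1.31% were called lower, and members of this list were chosen with earlier results of these data known. The other 4 lower members were Vipr2, Chodl, Mmp9 and Slit3. Vipr2, a receptor for vasoactive intestinal peptide, had the largest fall of any named gene, at 2.38, 0.968 and 1.54 CPM in lesion libraries, against 11.2, 8.2 and 9.37 CPM in contralateral libraries (log2 -2.60 ± 0.26, adjusted p = 8.9e-07). Chodl, a membrane lectin of fast motor neurons, had 8, 9.6 and 8.88 CPM in lesion libraries, against 29.2, 27.9 and 25.3 CPM in contralateral libraries (log2 -1.63 ± 0.30, adjusted p = 0.0049). Mmp9, a matrix protease that marks fast motor neurons, had 4.46, 4.06 and 4.03 CPM in lesion libraries, against 8.76, 7.94 and 7.04 CPM in contralateral libraries (log2 -0.92 ± 0.15, adjusted p = 0.00031). In all 3 the sides stood fully apart. Slit3, a guidance ligand, fell by log2 -0.76 ± 0.13 (adjusted p = 0.00087). Prph, which encodes the intermediate filament peripherin, was the member that rose, at 127, 194 and 160 CPM in lesion libraries and 97.5, 85.1 and 88.4 CPM in contralateral libraries (log2 0.83 ± 0.18, adjusted p = 0.021). Its call was lost without lesion replicate 2 (0.13) or 3 (0.052) and without contralateral replicate 2 (0.096) or 3 (0.077). Isl1, a transcription factor of motor neurons, had 2.94, 2.12 and 2.94 CPM in lesion libraries, against 4.79, 5.19 and 6.35 CPM in contralateral libraries, and missed the threshold (log2 -1.04 ± 0.29, adjusted p = 0.053). Mnx1, a marker of spinal motor neurons, was at or near 0 in all 6 libraries, at most 0.0745 CPM in lesion and 0.104 CPM in contralateral libraries.

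Among the remaining large falls were receptors and channels. Kcnj14, an inwardly rectifying potassium channel of cranial motor nuclei, had 3.8, 3.95 and 3.69 CPM in lesion libraries, against 15.6, 13.1 and 15.2 CPM in contralateral libraries (log2 -1.94 ± 0.19, adjusted p = 7.4e-07). Grin3b, a glutamate receptor subunit of motor neurons, had 2.73, 2.27 and 3.54 CPM in lesion libraries, against 7.98, 7.32 and 6.44 CPM in contralateral libraries (log2 -1.34 ± 0.18, adjusted p = 1.7e-05). Its exons lie opposite those of Tmem259, and whether counting used strand is unknown, so the pair may share reads. Htr3a, a serotonin-gated channel, had 2.48, 2.87 and 2.48 CPM in lesion libraries, against 7, 5.82 and 6.17 CPM in contralateral libraries (log2 -1.27 ± 0.18, adjusted p = 3.3e-05). Vdr, the vitamin D receptor, had 1.72, 1.34 and 0.903 CPM in lesion libraries, against 4.16, 3.32 and 3.7 CPM in contralateral libraries (log2 -1.52 ± 0.27, adjusted p = 0.00071). Prss12, a neuronal serine protease called neurotrypsin, had 4.4, 4.02 and 4.52 CPM in lesion libraries, against 12.8, 10.5 and 11 CPM in contralateral libraries (log2 -1.41 ± 0.16, adjusted p = 8.9e-07). It lies opposite the predicted gene Gm35065. The sides did not overlap for any of these 5 genes, and each kept its call in every alternative fit. Htr2a, a serotonin receptor, and Fam135b were among the 15 largest falls but less secure. Htr2a had an adjusted p of 0.027, and of 0.11 without lesion replicate 2, 0.062 without contralateral replicate 1 and 0.13 without contralateral replicate 2. Fam135b had an adjusted p of 0.017, and of 0.12 without lesion replicate 2 and 0.065 without contralateral replicate 1.

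Beyond these genes most falls were small, and the lower genes as a set followed gene length. Among the 291 lower genes, 16 fell by log2 1 or more, and the largest fall was log2 -3.10. Trim58 and Tnfaip8l3, at 2192 and 2225 bases, fell by log2 -1.43 and -1.24 and held in every alternative fit. Adamts12 had 3 counts in lesion and 22 in contralateral libraries, a ratio of 0.115 with an exact 95% interval of 0.022 to 0.382 for counting error only. When genes with at least 1 CPM were ordered by length, the median log2 difference was 0.12 in the shortest of 10 equal classes and -0.14 in the longest. It ran from 0.20 to -0.23 across these classes in lesion replicate 2, from 0.03 to -0.06 in lesion replicate 1 and from 0.11 to -0.13 in lesion replicate 3, each set against the contralateral mean. At day 7 the same medians were 0.02 and -0.02, and at day 30 they were -0.09 and 0.06. Of the 291 lower genes, 103 lay in the longest class and 5 in the shortest, and their median length was 7027 bases, against 2736 bases for the higher genes and 2962 bases for all genes tested. The 34 lower genes that held in every alternative fit had a median log2 difference of -0.73 and a median length of 4754 bases, against -0.33 and 7620 bases for the other 257. With an offset for length in the fit, an alternative chosen after seeing the data, 569 genes were higher (2.55%), of which 485 were among the 575, and 162 were lower (0.727%), of which 140 were among the 291, 731 (3.28%) in all.

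**Figure D3:**
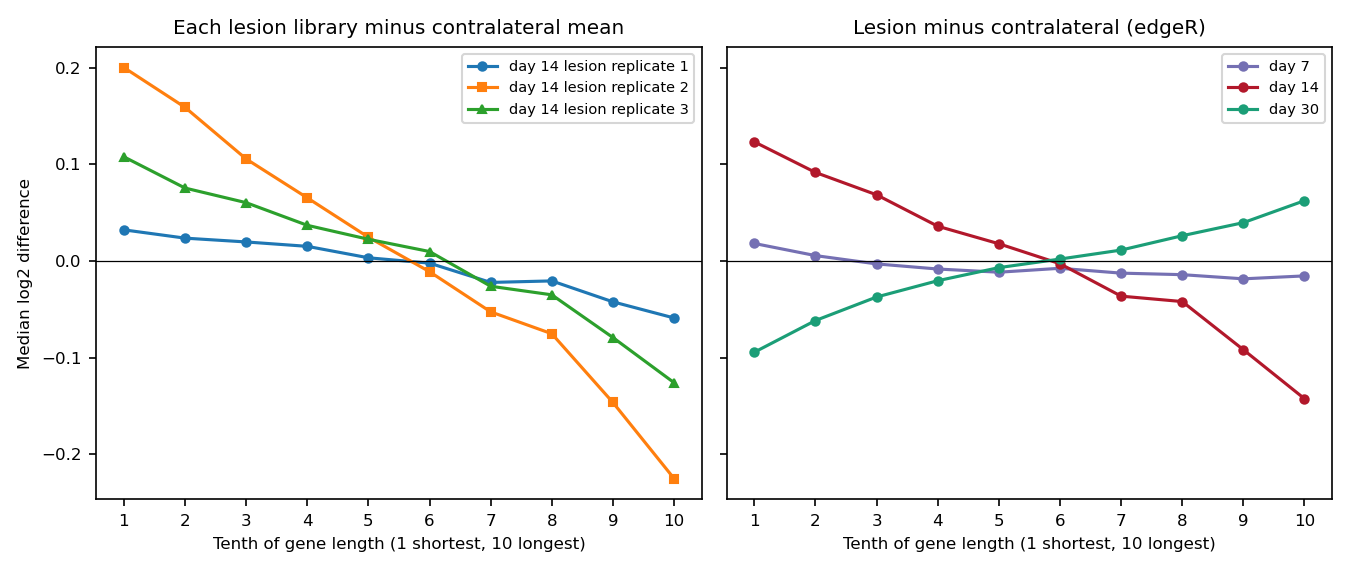
Median log2 difference (y axis) in 10 classes of gene length from shortest to longest (x axis), for each day 14 lesion library minus the mean of the contralateral libraries (left) and for the fitted lesion minus contralateral difference on each day (right). At day 14 the medians fall from 0.12 to -0.14 and most steeply in lesion replicate 2, while at day 30 they climb from -0.09 to 0.06.

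Ion channels and transmitter receptors, many of them long genes, have to be read beside that trend. Of 45 potassium channel genes, 0 were higher and 8 lower, with a median log2 difference of -0.17, and 6 were lower with the length offset. The count was 14 without lesion replicate 1, 3 without lesion replicate 2, 5 without lesion replicate 3, 3 without contralateral replicate 1 and 4 without contralateral replicate 2 or 3. Only Kcnj14 and Kcnh7 were lower in every alternative fit. Kcnh7, an ether-à-go-go-related channel, had 30.6, 24.9 and 30.2 CPM in lesion libraries, against 39.9, 35.9 and 43.1 CPM in contralateral libraries (log2 -0.48 ± 0.10, adjusted p = 0.0032). Of 43 glutamate, GABA and glycine receptor genes, 0 were higher and 5 lower, with a median of -0.18, and 2 were lower with the offset. Without lesion replicate 1 there were 12, without lesion replicate 2 there was 1, without lesion replicate 3 there were 3, and without contralateral replicates 1, 2 and 3 there were 1, 1 and 2. Among these, Grin3b alone held in every alternative fit. Of 35 receptors for monoamines and acetylcholine, 3 were lower, with Htr3a and Chrm2 in every alternative fit, and the count was 6 without lesion replicate 1. Chrm2, the muscarinic M2 receptor, had 50.6, 35.4 and 50.4 CPM in lesion libraries, against 70.6, 74.7 and 65.4 CPM in contralateral libraries (log2 -0.63 ± 0.12, adjusted p = 0.0035), with lesion replicate 2 the lowest. Of 36 genes of synaptic vesicles and release, 4 were lower, 2 with the offset, 5 without lesion replicate 1, 1 without lesion replicate 3 and 0 without any other single library.

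A pair of channel genes rose against this background. Cacna2d1, an auxiliary subunit of voltage-gated calcium channels, had 93.9, 84.4 and 94.2 CPM in lesion libraries, against 58.9, 53.2 and 55.7 CPM in contralateral libraries (log2 0.70 ± 0.09, adjusted p = 2.6e-05). Scn9a, which encodes the sodium channel Nav1.7, had 20.2, 18.3 and 22.5 CPM in lesion libraries, against 14.6, 14 and 14.4 CPM in contralateral libraries (log2 0.51 ± 0.10, adjusted p = 0.0036). Both were apart in all libraries and in every alternative fit. They were the only higher genes among 32 sodium and calcium channel genes, of which 2 were lower. The 2 lower ones, Cacna1h and Nalcn, were not called with the length offset, and the count of lower genes in this list was 8 without lesion replicate 1, 1 without contralateral replicate 3 and 0 without any other single library. At the short end of the trend, 4 of 48 cytosolic ribosomal protein genes were higher, with a median log2 difference of 0.23, or 0.14 with the offset. That count was 14 without lesion replicate 1, 1 without lesion replicate 2 or contralateral replicate 1 or 2, and 2 without contralateral replicate 3.

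**Figure D4:**
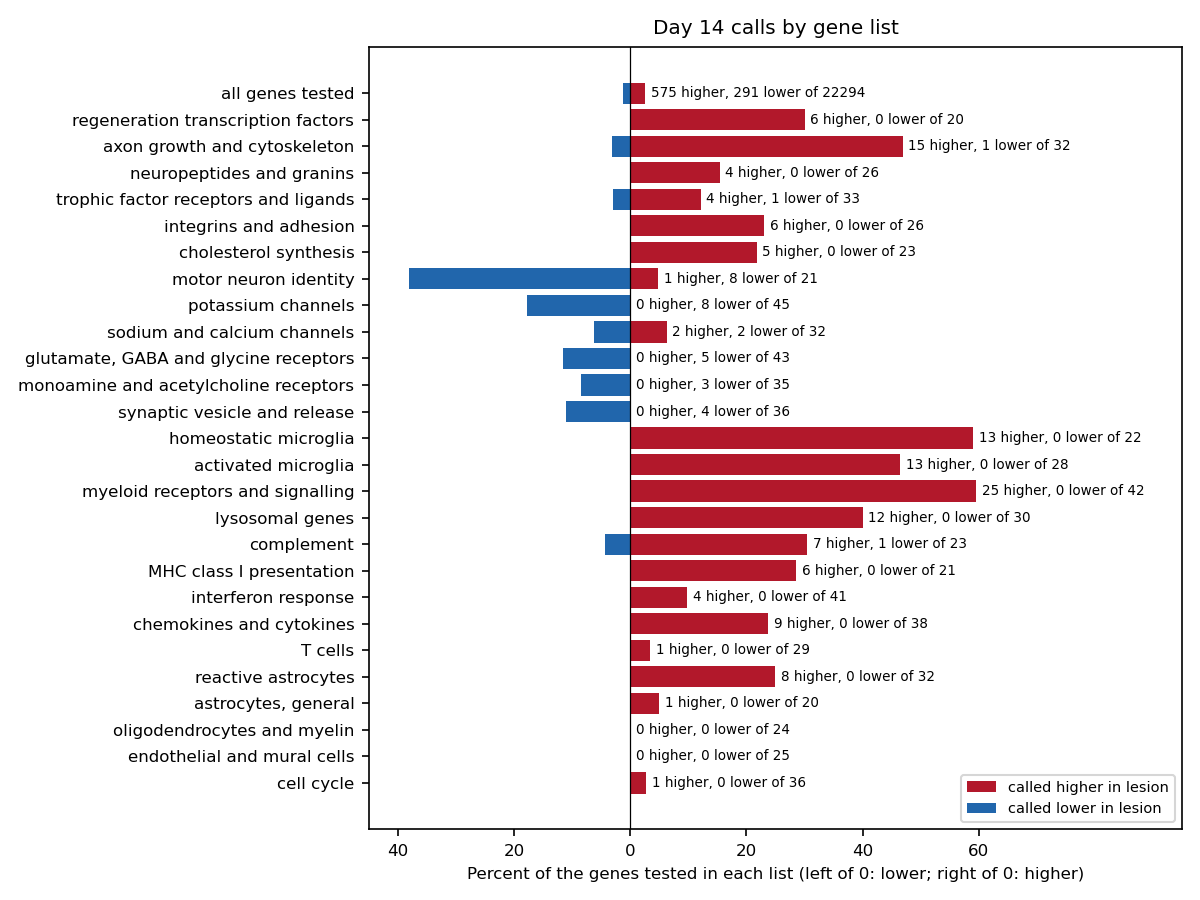
Percent of tested members called higher (right of 0) and lower (left of 0) in the lesion pons at day 14, for all genes and for 26 of the 48 gene lists examined, with counts beside each bar. Homeostatic microglial and myeloid lists reach the highest shares of higher calls, motor neuron markers have 8 lower of 21, and myelin and endothelial lists have none of either.

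Of 22 genes typical of resting microglia, 13 were higher and 0 lower, with a median log2 difference of 0.64, and 12 of them were higher in every alternative fit. Aif1, which encodes the microglial protein IBA1, had 9.47, 9.72 and 8.39 CPM in lesion libraries, against 3.47, 3.63 and 3.33 CPM in contralateral libraries (log2 1.40 ± 0.15, adjusted p = 3.8e-07). Cx3cr1, of which these mice have 1 intact copy, had 34.7, 36.8 and 25.9 CPM in lesion libraries, against 21.1, 21.5 and 15.3 CPM in contralateral libraries (log2 0.75 ± 0.15, adjusted p = 0.004). Tmem119 had 40, 29.5 and 37.8 CPM in lesion libraries, against 21.5, 20.8 and 22.6 CPM in contralateral libraries (log2 0.72 ± 0.09, adjusted p = 8e-06). Every lesion library was above every contralateral one for these genes, but P2ry12, another marker of resting microglia, overlapped between sides. It had 29.7, 21.4 and 27.9 CPM in lesion libraries, against 18.9, 23 and 19.3 CPM in contralateral libraries (log2 0.36 ± 0.11, adjusted p = 0.056). Csf1r, the receptor microglia need to survive, rose by log2 0.58 ± 0.08, and its ligand Csf1 by log2 0.66 ± 0.08. Csf1 had 73.8, 61.1 and 73.7 CPM in lesion libraries, against 39.3, 47.6 and 44.6 CPM in contralateral libraries (adjusted p = 2.9e-06).

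Of 28 genes of activated microglia, 13 were higher and 0 lower, with a median log2 difference of 0.53. Itgax, the integrin chain CD11c, had 1.87, 0.782 and 1.24 CPM in lesion libraries, against 0.147, 0.26 and 0.183 CPM in contralateral libraries (log2 2.67 ± 0.44, adjusted p = 0.00028). Lgals3, a galactose-binding lectin, had 4.1, 3.65 and 4.14 CPM in lesion libraries, against 0.881, 0.935 and 1.23 CPM in contralateral libraries (log2 1.95 ± 0.31, adjusted p = 0.00028). Cst7, a cysteine protease inhibitor, had 1.62, 0.409 and 0.941 CPM in lesion libraries, against 0, 0.0519 and 0.183 CPM in contralateral libraries (log2 3.48 ± 0.62, adjusted p = 0.0007). In Itgax and Cst7, lesion replicate 1 was the highest and replicate 2 the lowest of the lesion libraries, all above the contralateral ones. Apoe, the lipid carrier, had 1554, 2090 and 1491 CPM in lesion libraries, against 1404, 1342 and 1268 CPM in contralateral libraries, and was not called (adjusted p = 0.066). Spp1, Gpnmb, Lpl and Axl were not called either, with adjusted p from 0.056 to 0.98. Myeloid receptors and signalling genes were the list with the most higher calls, 25 of 42, with a median of 0.64, but 11 held in every alternative fit. The count of higher calls was 14 with only the groups compared and 15 to 23 with 1 library left out. It was 15 without contralateral replicate 1 and 16 without contralateral replicate 2. Ly86 had 30.6, 21.7 and 26.2 CPM in lesion libraries, against 9.88, 10.9 and 10.1 CPM in contralateral libraries (log2 1.34 ± 0.12, adjusted p = 1.8e-08).

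Some complement and lysosomal genes were called as well. C1qa, C1qb and C1qc encode the chains of C1q, which starts the classical complement pathway. C1qa had 98.1, 98.1 and 95.8 CPM in lesion libraries, against 43.8, 41.1 and 46.5 CPM in contralateral libraries (log2 1.15 ± 0.08, adjusted p = 1.4e-10). C1qb and C1qc rose by log2 1.02 ± 0.10 and 0.90 ± 0.09. C3 and C4b, which act after C1q, were not called. C3 had 15.5, 15.3 and 12.1 CPM in lesion libraries, against 11.7, 12.8 and 14.2 CPM in contralateral libraries, with overlapping sides (log2 0.14 ± 0.14, adjusted p = 0.65). C4b had 77.6, 56.9 and 57.8 CPM in lesion libraries, against 38.6, 36.2 and 47.6 CPM in contralateral libraries, without overlap but short of the threshold (log2 0.65 ± 0.18, adjusted p = 0.061). In the complement list 7 of 23 were higher, and Cd55, a brake on complement, was called lower, a call lost with every single library left out (adjusted p from 0.063 to 0.16). Of 30 lysosomal genes, 12 were higher and 0 lower. Ctss, a cathepsin of microglia, had 196, 169 and 177 CPM in lesion libraries, against 68.7, 84.2 and 76.6 CPM in contralateral libraries (log2 1.24 ± 0.08, adjusted p = 3e-11). Ctsd, a cathepsin expressed in most cells, had 821, 966 and 834 CPM in lesion libraries, against 599, 595 and 623 CPM in contralateral libraries (log2 0.53 ± 0.06, adjusted p = 1e-06).

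Genes of antigen presentation by class I molecules were higher in 6 of 21 cases and lower in 0, with a median log2 difference of 0.37. B2m, the invariant chain, had 206, 141 and 153 CPM in lesion libraries, against 93.8, 108 and 104 CPM in contralateral libraries (log2 0.70 ± 0.11, adjusted p = 0.00086). H2-D1, a heavy chain, had 140, 112 and 119 CPM in lesion libraries, against 78.2, 89.8 and 82.8 CPM in contralateral libraries (log2 0.56 ± 0.08, adjusted p = 1.4e-05), although class I genes are alike and may share reads. The sides were apart in both, with lesion replicate 1 the highest. Class II genes were called in 1 of 15, the costimulatory Cd86 (log2 0.94 ± 0.19, adjusted p = 0.0026), and H2-Aa had 4, 4.43 and 5.12 CPM in lesion libraries, against 1.91, 4.46 and 5.53 CPM in contralateral libraries.

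Genes induced by interferon were high in 1 lesion library. Their 41 tested members had a median log2 difference of 0.68, larger than that of the microglial lists, but only 4 were called, namely Ifi27, Stat2, Xaf1 and Bst2. Summed over the list, lesion replicate 1 had 750 CPM, lesion replicates 2 and 3 had 365 and 344 CPM, and the contralateral libraries had 329, 289 and 282 CPM. Lesion replicate 1 was the highest of the lesion libraries for 39 of the 41 genes, compared with 35.7% of all genes tested. Irf7, a transcription factor of this response, had 36.2, 9.46 and 8.54 CPM in lesion libraries, against 6.21, 5.19 and 3.79 CPM in contralateral libraries, and was not called (log2 1.81 ± 0.50, adjusted p = 0.061). Ifit1, which binds foreign RNA, had 37, 8.38 and 6.13 CPM in lesion libraries, against 11, 6.18 and 5.07 CPM in contralateral libraries (adjusted p = 0.29). Cxcl10, an interferon-induced chemokine, had 11.8, 0.298 and 1.02 CPM in lesion libraries, against 1.57, 0.156 and 0.274 CPM in contralateral libraries (adjusted p = 0.25). In these last 2 genes the sides overlapped, and contralateral replicate 1 was the highest of its side. Ifi27, by contrast, had 65.4, 80.8 and 68.1 CPM in lesion libraries, against 48.8, 51.2 and 54 CPM in contralateral libraries, and was called in every alternative fit (log2 0.48 ± 0.08, adjusted p = 0.00047). The count of calls in the list was 3 without lesion replicate 1, 6 without lesion replicate 2, 7 without lesion replicate 3 and 2 without any 1 contralateral library.

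Chemokines and cytokines were called higher in 9 of 38 cases and lower in 0, and in 5 without contralateral replicate 1. Ccl2, which attracts monocytes, had 2.18, 1.04 and 1.43 CPM in lesion libraries, against 0.147, 0.0519 and 0.0914 CPM in contralateral libraries (log2 3.90 ± 0.61, adjusted p = 0.00019). Ccl7, a close relative, had 3.59, 2.31 and 3.91 CPM in lesion libraries, against 0.0979, 0.208 and 0.365 CPM in contralateral libraries (log2 3.82 ± 0.45, adjusted p = 3.4e-06). Ccl5, which attracts T cells, had 3.65, 0.893 and 1.81 CPM in lesion libraries, against 0.0979, 0.156 and 0.32 CPM in contralateral libraries (log2 3.37 ± 0.65, adjusted p = 0.0044). These levels are low, yet the sides did not overlap in any of the 3 genes. The classical inflammatory cytokines Tnf, Il6 and Il1b stayed close to 0. They had at most 0.152, 0.223 and 0.253 CPM in lesion libraries and 0.0979, 0.228 and 0.137 CPM in contralateral libraries. Il1a, another such cytokine, was among the 9 called higher. Its call was lost whichever single library was left out (adjusted p from 0.067 to 0.19). Il1f9, an interleukin 36 cytokine, had 2.33, 3.87 and 2.75 CPM in lesion libraries, against 0.489, 0.26 and 0.274 CPM in contralateral libraries (log2 3.12 ± 0.43, adjusted p = 4.6e-05).

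Of 29 T cell genes tested, 1 was called (3.45%), a share near the 2.58% of all genes called higher. It was the receptor segment Trbc2, at 1.11, 0.931 and 0.866 CPM in lesion libraries and 0.196, 0.26 and 0.228 CPM in contralateral libraries (log2 2.06 ± 0.40, adjusted p = 0.002). The list's median log2 difference was 0.60, and 26 of the 29 differences were positive. The list summed to 15.7 to 18.7 CPM in lesion libraries and 12 to 12.8 CPM in contralateral libraries. The defining chains were near 0: Cd3e had 0.456, 0.298 and 0.113 CPM in lesion libraries, against 0.0979, 0.156 and 0.0914 CPM in contralateral libraries, and was not called (adjusted p = 0.35). Of B cell genes 0 of 11, and of blood myeloid cells and border macrophages 0 of 19, were called in either direction. Their summed levels overlapped, at 97.2 to 110 CPM in lesion and 99.6 to 109 CPM in contralateral libraries for B cells and 36.2 to 49.3 CPM and 32.2 to 54 CPM for the myeloid list. Of 36 cell cycle genes 1 was called, Birc5, and Mki67, the proliferation marker, had 0.861, 0.968 and 0.979 CPM in lesion libraries, against 1.12, 1.25 and 1.14 CPM in contralateral libraries (log2 -0.31 ± 0.26, adjusted p = 0.56). The Birc5 call was lost without lesion replicate 2 (adjusted p = 0.088) and without contralateral replicate 3 (0.11).

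Reactive astrocyte genes were called in 8 of 32 cases, all higher, with a median log2 difference of 0.39. Serpina3n, a secreted protease inhibitor, had 156, 190 and 166 CPM in lesion libraries, against 61.2, 55 and 54.5 CPM in contralateral libraries (log2 1.58 ± 0.15, adjusted p = 3.3e-06). Timp1, an inhibitor of matrix proteases, had 3.14, 2.46 and 2.26 CPM in lesion libraries, against 0.636, 1.09 and 0.868 CPM in contralateral libraries (log2 1.59 ± 0.27, adjusted p = 0.0004). Ptx3, a pentraxin, rose by log2 1.87 ± 0.37 (adjusted p = 0.0024). Gfap, the intermediate filament of astrocytes, had 935, 930 and 862 CPM in lesion libraries, against 664, 606 and 701 CPM in contralateral libraries. The sides were apart, but the difference missed the threshold (log2 0.47 ± 0.16, adjusted p = 0.13). The day 0 range of 800.3 to 1150 CPM reached above both, but those libraries differ in age, depth and lane label, and the comparison was not tested. Vim overlapped between sides (log2 0.19 ± 0.14, adjusted p = 0.52). Cd44, Hspb1, S100a10 and H2-D1, which count in this list, are expressed by other cells too and were described or counted above. Of 20 general astrocyte genes only Ndrg2 was called, and that call was lost without lesion replicate 2 (adjusted p = 0.3) or 3 (0.075) and without contralateral replicate 2 (0.22) or 3 (0.14). Oligodendrocyte, precursor, endothelial, ependymal, blood, choroid plexus and meningeal lists had 0 calls in either direction in the full set.

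The response at day 14 was set against the lesion effects at days 7 and 30, each with its own contralateral libraries. Animals were 9, 10 and 12 weeks old at days 7, 14 and 30, and each of these days carries another lane label. Time after the cut, age and lane therefore cannot be told apart in a difference between days. At day 7, 368 genes were called (1.65%), 347 higher (1.56%) and 21 lower (0.0942%), and at day 30, 259 (1.16%), 232 higher (1.04%) and 27 lower (0.121%). The interaction contrast between day 14 and day 7 called 0 genes in edgeR (0%), with 1320 genes (5.92%) at an unadjusted p below 0.05, 1 gene by DESeq2 and 0 by limma-voom. Of the 575 genes higher at day 14, 556 had a positive log2 difference at day 7 and 463 at day 30. Of the 291 lower genes, 248 had a negative one at day 7 and 133 at day 30, where long genes leaned upward. Over all genes tested, 13156 of 22294 had the same sign at days 14 and 7 and 10037 at days 14 and 30. Among the 34 lower genes that held in every alternative fit, 31 had a negative difference at day 7 and 29 at day 30.

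Against day 30, 18 genes (0.0807% of genes tested) had a larger lesion effect at day 14 and 0 a smaller one. Avpr1a, a vasopressin receptor, had a log2 lesion effect of 1.88 ± 0.21 at day 7, 2.38 ± 0.20 at day 14 and 0.50 ± 0.21 at day 30. Its level at day 14 was 10.1, 13 and 14.6 CPM in lesion libraries, against 3.38, 1.4 and 2.47 CPM in contralateral libraries. The difference between the day 14 and day 30 effects was 1.88 ± 0.29 (adjusted p = 0.0072). Il4ra, the interleukin 4 receptor, had lesion effects of 0.95, 1.45 and 0.62 at days 7, 14 and 30, and Uck2, a uridine-cytidine kinase, of 1.01, 1.04 and 0.36. These 3 genes alone among the 18 held in every alternative fit that gave them a value. That was 21 fits for each of the 3, and up to 22 for the other genes. Itga7 (2.01, 2.06 and 0.97) lost its call without day 14 lesion replicate 2, and Gadd45a (1.26, 1.32 and 0.27) without day 14 lesion replicate 3 or day 30 contralateral replicate 1. The count of 18 was 938 without day 14 lesion replicate 1. It was 16 and 11 without day 14 contralateral replicates 1 and 3, 11 without day 30 contralateral replicate 3, and 10 without day 30 lesion replicates 2 or 3 or contralateral replicate 2. It was 6 without day 30 lesion replicate 1, and 5 without day 14 lesion replicate 2 or 3, day 14 contralateral replicate 2 or day 30 contralateral replicate 1. Among the 18 were growth genes (Stmn2, Tubb2b, Nrep), the co-receptor Gfra1, Anxa2 and a pair from cholesterol synthesis (Mvd, Mvk).

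**Figure D5:**
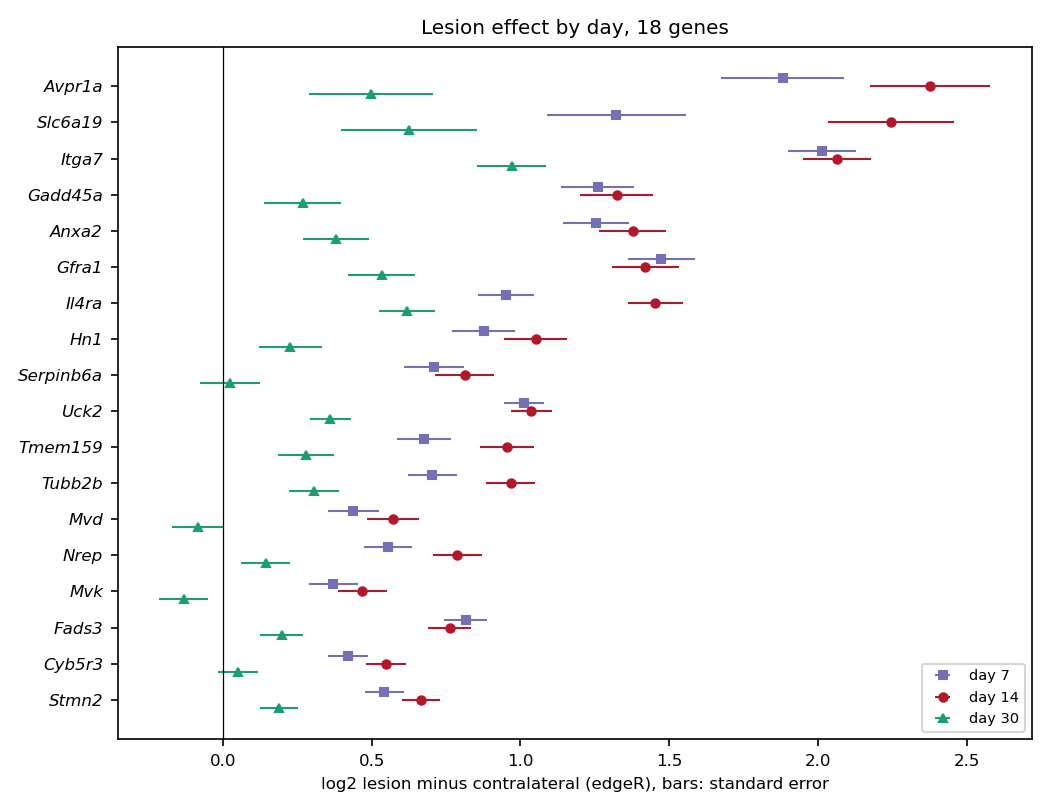
Log2 lesion minus contralateral difference with its standard error (x axis) for the 18 genes whose lesion effect differed between days 14 and 30 (y axis), at days 7, 14 and 30. For every gene the day 30 point lies left of the day 14 point, from Avpr1a (2.38 at day 14 and 0.50 at day 30) to Stmn2 (0.67 and 0.19).

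For other genes no difference in the lesion effect between days passed the test, and their values are given side by side. Gal and Npy had lesion effects of 4.37, 5.06 and 2.46, and of 3.27, 4.62 and 3.01, at days 7, 14 and 30. Sprr1a had 9.46, 9.83 and 6.96, and Atf3 had 5.75, 5.84 and 3.45. Among lower genes Prss12 had -1.31, -1.41 and -1.63, Kcnj14 had -1.79, -1.94 and -1.88, and Chat had -0.79, -1.54 and -0.83. The median effect over homeostatic microglial genes was 0.58, 0.64 and 0.46, and over interferon-induced genes 0.61, 0.68 and 1.15, at days 7, 14 and 30. For day 30, column names of the count table and sample labels give opposite sides. The labels were followed, and with them Sprr1a and Atf3 are higher on the lesion side on all 3 days.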

How the data were processed

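The authors deposited raw counts per gene symbol. Per the labels and the submitters' processing notes, libraries were made from 300 ng of RNA with a stranded kit, read as single 50-base reads, called with CASAVA 1.8.2, aligned with Rsubread to GRCm38.p4 and counted with featureCounts; the strand setting is not given in the sources used here. The deposited log2 CPM matrix was an alternative only; 22269 of its genes were matched by symbol. Here edgeR 4.0.16 (R 4.3.3; quasi-likelihood F-test with robust dispersions and TMM factors, fitted to the 21 libraries with a term for each group) gave log2 differences, standard errors and two-sided p, adjusted by Benjamini-Hochberg over all 22294 genes and called below 0.05; an exact test of 3 against 3 cannot go below 0.1. Alternatives used DESeq2 1.42.0, limma 3.58.1, other filters and scalings, a replicate block, a length offset and each library left out; the scripts were tested on simulated counts. Named genes were the 15 largest higher and 15 largest lower calls with at least 1 CPM, sides apart and no clone-based symbol (of the called genes, 37 higher and 16 lower carry one), plus members of 48 gene lists: those with the smallest adjusted p and others for their roles. Members and lists were chosen with earlier results of these data known. Positions are from GENCODE M21, promoters from RefSeq.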

Additional observations from a re-analysis of the deposited data

Results flagged for a closer look

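For 18 genes the lesion effect (log2 lesion minus contralateral) at day 14 was larger than at day 30 by the interaction test in edgeR, at an adjusted p below 0.05 over all genes. The difference between the effects was 1.88 for Avpr1a, 1.62 for Slc6a19, 1.09 for Itga7, 1.06 for Gadd45a and 0.997 for Anxa2. It was 0.886 for Gfra1, 0.835 for Il4ra, 0.824 for Hn1, 0.788 for Serpinb6a, 0.675 for Uck2 and 0.674 for Tmem159. It was 0.662 for Tubb2b, 0.656 for Mvd, 0.644 for Nrep, 0.6 for Mvk, 0.565 for Fads3, 0.498 for Cyb5r3 and 0.476 for Stmn2. Avpr1a, Il4ra and Uck2 kept the call in every alternative that gave them a value, and the other 15 lost it in at least 1. The opposite length trends at days 14 and 30 run through the same contrast. Their part in these differences was tested only by the length offset, with which Serpinb6a and Tmem159 lost their calls. Days 14 and 30 also differ in lane label and age, and the part of these was not tested.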

How the results depend on the processing

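No gene checked changed sign under any alternative run. Of 201 called genes in the lists or among the largest changes, 120 kept their call in all alternatives that gave them a value and 81 lost it in at least 1. The day 14 counts (either direction, higher, lower) were 435, 348 and 87 with only the groups compared, and 102, 97 and 5 at an absolute log2 difference of 1.7. Lower genes numbered 466 with no filter on low counts, 524 by DESeq2 and 162 with the length offset, which was chosen after seeing the data. With 1 library left out the 3 counts ranged from 432 to 1983, 354 to 1021 and 51 to 962. The day 14 minus day 7 contrast gave 2 genes with no filter, 1 of them higher and 1 lower, 1 higher by DESeq2, and 0 to 1 with a library left out. The day 14 minus day 30 contrast gave 331 genes with no filter (191 higher, 140 lower), 200 by DESeq2 (129 and 71), 92 with only the groups compared (56 and 36) and 1 higher at 1.7; with a library left out it gave 5 to 938 genes, 5 to 462 higher and 0 to 476 lower. The cause was not tested.

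With a replicate block, day 14 gave 1911 genes (959 higher, 952 lower), the day 14 minus day 7 contrast 1 higher gene, and the day 14 minus day 30 contrast 746 (322 and 424). Same-numbered day 14 libraries correlated at 0.25, -0.02 and 0.18 after group means were removed, and not every library correlated best with its own number. The same values were 0.29, 0.27 and 0.18 at day 7 and 0.25, 0.24 and 0.21 at day 30, where every different-numbered pair was below 0. Day 14 enters each contrast, and 1 of its 3 values was not above 0.1. The numbers were therefore not treated as pairs in the main fit. That value belonged to replicate 2, whose lesion library stood apart, so it cannot decide the question. The numbers may still mark pairs, and if they do, the counts with a replicate block are the ones to read.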
